A study of Mus musculus with 6 samples.

Results

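Oxidative phosphorylation subunits were followed in MS5 cells, a stromal line from mouse bone marrow, after inhibition of MEK. The set holds every probe set whose annotation gives a single gene symbol that starts with Nduf, Uqcr or Atp5, or with Cox4 to Cox8 followed by a letter or digit, or that is Sdha, Sdhb, Sdhc, Sdhd or Cyc1. This gave 115 of 28853 probe sets, which represent 90 of 19938 named genes. MEKi cultures received 1 μM PD184352, an inhibitor of the kinases MEK1 and MEK2, and control cultures received its diluent, DMSO, for 7 days in medium with serum. Each of 3 independent experiments gave 1 MEKi and 1 diluent culture of the unmodified line, hence 3 arrays per condition. The line stands for 1 established stromal cell type and not for marrow as a tissue. Per the methods, the arrays were Affymetrix mouse Gene 1.0 ST, on which groups of short probes (probe sets) read whole transcripts, and all values below are log2 intensities after robust multichip normalization (RMA).

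Oxidative phosphorylation is the route by which mitochondria turn the oxidation of nutrients into ATP. Complexes I and II take electrons from NADH and succinate, complex III passes them to cytochrome c, and complex IV (cytochrome c oxidase) hands them to oxygen. The protons pumped on the way drive complex V, the ATP synthase. Nearly all subunits are made from nuclear genes, a few from mitochondrial DNA, and several complex IV subunits exist as a widespread form and a form restricted to certain tissues or to low oxygen. Of the 90 genes, 34 belonged to complex I, 4 to complex II, 9 to complex III, 19 to complex IV and 17 to complex V, and 7 were complex I assembly factors of the Ndufaf group. Ndufa4 and Ndufa4l2 were counted with complex IV, since the NDUFA4 protein is now placed there in spite of its name.

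Array medians lay between 6.29 and 6.38. Both arrays of experiment 1 stood apart from the other 4, with correlations of 0.987 to 0.989 with them, against 0.993 to 0.997 among those 4, while they correlated at 0.996 with each other. Values without experiment 1 are therefore given beside the results that rest on it. Of the marker genes, 8 of 10 stromal, 6 of 8 adipocyte, 2 of 7 leukocyte and 0 of 5 endothelial ones were at or above the median level of all probe sets. Of 7 skeletal muscle markers, 4 were at or above it. As a check of the treatment, Ccnd1, a target of the ERK pathway, fell by 1.32 on the log2 scale (adjusted p = 0.03 from limma). This call was lost without experiment 2 (adjusted p = 0.131), with a random block (0.377), with no block (0.9995) and after centring of the arrays (0.0508), while the estimate lay between −1.42 and −1.21 in every setting. Dusp6, an ERK phosphatase, stood at −0.57 (adjusted p = 0.137). The conditions were compared within experiments by limma, with Benjamini-Hochberg adjustment across the array. Over the whole array 46 probe sets passed at an adjusted p under 0.05.

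None of the 115 probe sets passed the test, the lowest adjusted p being 0.183 from limma (an ordinary analysis of variance also passed 0), against 0.159% of all probe sets. At an unadjusted p under 0.05, 11 were higher with MEKi (9.57%) and 3 were lower (2.61%), against 7.58% and 2.31% of all probe sets. The members lay in the upper part of the intensity range, 111 of 115 being at or above the median level of all probe sets. Among the probe sets at or above that level, 10.7% were higher and 3.12% lower at an unadjusted p under 0.05, so that the shares of the members were close to this background.

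Most structural subunits of all 5 complexes had small positive values, with a median of 0.11 over their 98 probe sets, a change of 1.08-fold. Of these 98, 93 lay above 0. Positive values also prevailed over the array, where the probe sets at or above the median level had a median of 0.047 and 9634 of 14427 lay above 0. By contrast, 3 restricted isoforms of complex IV, Ndufa4l2, Cox7a1 and Cox4i2, were the lowest of the 90 genes at −0.88, −0.58 and −0.54, and each was lower with MEKi in all 3 experiments.

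**Figure D1:**
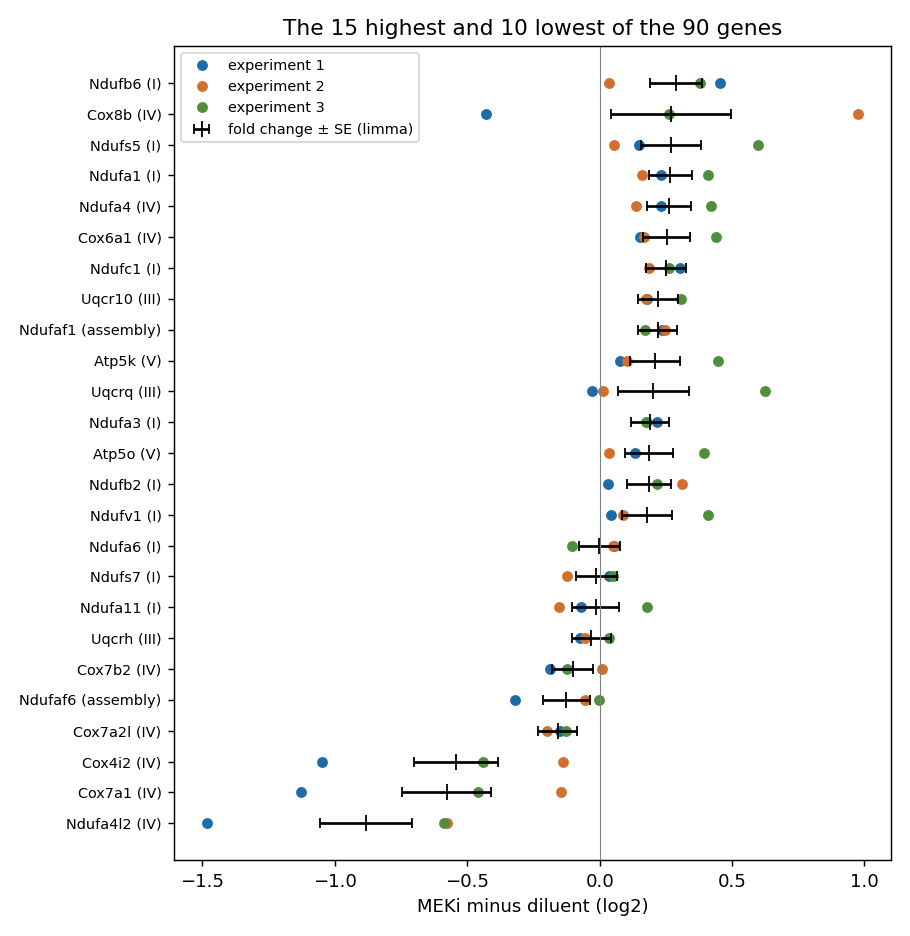
Differences between MEKi and diluent in log2 units (x axis) for the 15 genes with the highest and the 10 with the lowest log2 fold change of the 90 (y axis, complex in parentheses, 1 probe set per gene); colours give the experiment, and black bars give the limma estimate with its standard error. Ndufa4l2, Cox7a1 and Cox4i2 lie apart at −0.88, −0.58 and −0.54, and the highest gene, Ndufb6, lies at 0.29.

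Ndufa4l2 encodes a relative of NDUFA4 that is known as a target of the hypoxia-inducible factor HIF1. Its RMA values were 9.69, 6.87 and 10.11 in MEKi cultures of experiments 1, 2 and 3, against 11.18, 7.45 and 10.70 in diluent cultures. Each MEKi culture lay below the diluent culture of its own experiment, but the conditions overlapped, because experiment 2 was low in both of them. The differences were −1.48, −0.58 and −0.59, a mean of −0.88 (SE 0.174, n = 3 experiments), which left 0.542 of the diluent level (95% confidence interval 0.408 to 0.720). It did not pass (adjusted p = 0.183 from limma), although it ranked 23 from the lowest of all 28853 probe sets. Without experiment 1 the value was −0.58. This was the single member with an estimate of at least 1.5-fold, which 0.263% of all probe sets had upwards and 0.288% downwards.

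Cox4i2 encodes the second form of subunit 4, which regulates the oxidase and is known from lung and from cells at low oxygen. It had 6.96, 6.79 and 7.58 in MEKi cultures, against 8.01, 6.93 and 8.02 in diluent cultures. The decrease was mostly that of experiment 1 and was small in experiment 2, the experiment with the lowest diluent level. The estimate was −0.54 (SE 0.158, adjusted p = 0.344 from limma), and −0.29 without experiment 1.

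Cox7a1 encodes the form of subunit 7a that prevails in heart and skeletal muscle and in brown fat. It had 8.22, 8.36 and 9.53 in MEKi cultures, against 9.35, 8.51 and 9.99 in diluent cultures. As for Cox4i2, the differences were largest in experiment 1 (−1.13) and smallest in experiment 2 (−0.15), with −0.46 in experiment 3. Its mean was −0.58 (SE 0.169, limma adjusted p = 0.345) and −0.30 without experiment 1. Over the whole array, 7.98% of probe sets were lower in all 3 experiments (7.9% of those at or above the median level), and among the members this held for 5 of 115. These 5 were the 3 isoforms, 1 of the 2 probe sets of Cox7a2l (−0.16), a factor that joins complexes III and IV into supercomplexes, and Ndufaf6 (−0.13), an assembly factor. The other probe set of Cox7a2l had −0.05 with mixed directions.

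**Figure D2:**
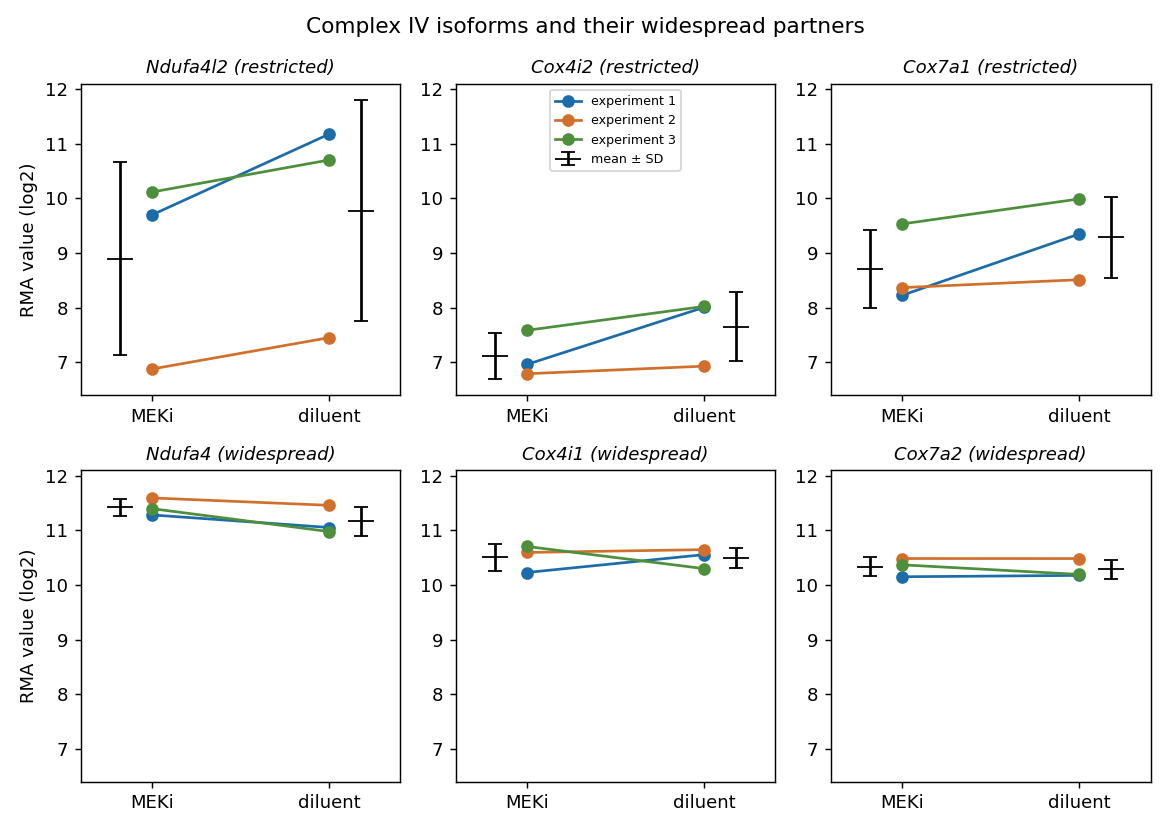
RMA values on the log2 scale (y axis) of 3 restricted complex IV isoforms (upper row) and of their widespread partners (lower row) in MEKi and diluent cultures (x axis); each line is 1 experiment, and black bars show the mean ± SD (n = 3). The upper lines all ascend towards diluent, and Ndufa4l2 in experiment 2 stands far below the other experiments in both conditions.

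The widespread partners did not share these values. Ndufa4 had 11.29, 11.60 and 11.40 in MEKi cultures, against 11.05, 11.46 and 10.98 in diluent cultures, and with 0.26 (SE 0.084, limma adjusted p = 0.379) it was higher in all 3 experiments. Cox4i1 had 10.23, 10.60 and 10.71 in MEKi cultures, against 10.56, 10.65 and 10.30 in diluent cultures, and its value of 0.01 averaged a lower level in experiments 1 and 2 and a higher one in experiment 3 and turned below 0 after further quantile normalization or centring. Cox7a2 had 10.15, 10.49 and 10.37 in MEKi cultures, against 10.18, 10.48 and 10.20 in diluent cultures, and averaged 0.05. For the first pair, the change of the restricted form minus that of the widespread form was −1.71, −0.71 and −1.01 in experiments 1, 2 and 3. For Cox4i2 minus Cox4i1 it was −0.72, −0.09 and −0.85, and for Cox7a1 minus Cox7a2 −1.10, −0.15 and −0.64. These 3 restricted forms were picked for their low values, so that the signs of their differences follow in part from the choice. Of the other 5 pairs, Cox6a2 minus Cox6a1 was also below 0 in all 3 experiments, at −0.10, −0.19 and −0.45. The pairs of Cox6b2, Cox7b2, Cox8b and Cox8c had mixed signs, with means of 0.01, −0.17, 0.15 and 0.01. No difference between pairs was tested.

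None of the remaining 5 restricted isoforms was lower with MEKi in all 3 experiments. Cox8b, a muscle form of subunit 8, had the largest standard error of the members, with 5.66, 8.14 and 7.00 in MEKi cultures, against 6.09, 7.16 and 6.74 in diluent cultures. It was lower with MEKi in experiment 1 and higher in experiments 2 and 3 (estimate 0.27, SE 0.226, adjusted p = 0.749), and its sign turned without experiment 2 (−0.08). Cox6a2, the muscle form of subunit 6a, had 0.01 (below 0 after the same rescalings), Cox6b2 and Cox8c, forms known from testis, had 0.10 and 0.13, and Cox7b2 had −0.10. Of these, Cox6b2, Cox7b2 and Cox8c were below the median level of all probe sets.

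A list of skeletal muscle genes was read beside Cox7a1. Of 7 such genes (Ckm, Acta1, Myog, Myh4, Tnnt3, Des and Mb), 1 was higher and none lower in all 3 experiments, with a median of −0.00, and their summed level ran from 10.75 to 11.15 in MEKi cultures and from 10.77 to 10.88 in diluent cultures on the log2 scale. Other genes known to respond to low oxygen had lower values beside the isoforms. Of 8 such genes that are no members, none passed (lowest adjusted p = 0.195 from limma). At an unadjusted p under 0.05, 0 were higher and 3 lower (37.5%, against 3.20% of named genes at or above the median level). The list was chosen with earlier results of these data known, so that this share is not an independent result. All 8 had values below 0 and their median was −0.37. Only 4 were lower in all 3 experiments, and 4 were higher with MEKi in experiment 2. With Ndufa4l2 and Cox4i2 added, the median was −0.42, and −0.17 without experiment 1. The medians of the 8 were −0.76, 0.01 and −0.37 in experiments 1, 2 and 3, which is the order of Cox4i2 and Cox7a1. Ndufa4l2 differed, with nearly equal values in experiments 2 and 3 (−0.58 and −0.59). The order was not particular to these genes. Of the ERK targets, Ier3 had it too (−1.32, −0.16 and −1.01), while Ccnd1 and Dusp6 did not. Pdk1, the kinase that holds pyruvate dehydrogenase inactive, had 8.39, 7.88 and 9.27 in MEKi cultures, against 9.09, 8.09 and 9.80 in diluent cultures (mean −0.48, SE 0.103). Vegfa, the vascular growth factor, had −0.51 and Bnip3, a mitophagy receptor, had −0.45. Cd68, a lysosomal gene used as a macrophage marker, had differences of the same order, −0.93, −0.14 and −0.74 (mean −0.61, adjusted p = 0.249 from limma). The defining leukocyte gene Ptprc stayed below the median level. Cd68 was the lowest of 7 leukocyte markers, whose median was −0.01. None of the 7 passed (lowest adjusted p = 0.190 from limma). Of these 7, 1 was higher in all 3 experiments (Lyz2 at 0.42) and 2 were lower. Among all named genes the shares were 25.2% and 7.42%. The part of any of these in the isoforms' values was not tested.

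Promoter sequences are shown for Cox7a1, its widespread partner Cox7a2, and Cox6a1 and Ndufa4, the widespread complex IV subunits with the highest values, to set a restricted isoform beside widespread ones. They come from RefSeq on GRCm38.p6 and run from 250 bases before to 50 bases after the annotated start; 73 of the 90 genes matched, and Ndufa4l2, Cox4i2 and Cox4i1 were not among them. Capitals mark matches on either strand to the motif of the respiratory factor NRF1 (GCGCA, any base, then GCGC), to GGAAG, the core of ETS factor sites, and to ACGTG or GCGTG, the core of hypoxia response elements.
Cox7a1: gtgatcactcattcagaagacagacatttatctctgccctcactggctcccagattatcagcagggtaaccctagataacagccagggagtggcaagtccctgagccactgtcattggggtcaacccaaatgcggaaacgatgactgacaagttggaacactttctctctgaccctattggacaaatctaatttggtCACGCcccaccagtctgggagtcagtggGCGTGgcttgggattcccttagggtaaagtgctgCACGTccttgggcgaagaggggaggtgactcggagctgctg
Cox7a2: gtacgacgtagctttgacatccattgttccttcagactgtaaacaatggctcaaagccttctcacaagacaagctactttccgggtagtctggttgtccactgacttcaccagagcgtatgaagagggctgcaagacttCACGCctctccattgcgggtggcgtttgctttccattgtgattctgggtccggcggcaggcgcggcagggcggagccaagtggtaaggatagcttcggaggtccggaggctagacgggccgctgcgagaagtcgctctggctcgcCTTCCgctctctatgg
Cox6a1: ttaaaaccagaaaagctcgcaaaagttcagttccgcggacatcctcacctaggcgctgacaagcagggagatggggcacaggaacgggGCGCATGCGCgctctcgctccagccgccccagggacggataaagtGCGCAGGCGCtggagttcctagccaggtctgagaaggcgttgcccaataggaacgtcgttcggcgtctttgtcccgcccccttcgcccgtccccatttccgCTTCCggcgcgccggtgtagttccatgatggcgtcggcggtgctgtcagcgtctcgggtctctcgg
Ndufa4: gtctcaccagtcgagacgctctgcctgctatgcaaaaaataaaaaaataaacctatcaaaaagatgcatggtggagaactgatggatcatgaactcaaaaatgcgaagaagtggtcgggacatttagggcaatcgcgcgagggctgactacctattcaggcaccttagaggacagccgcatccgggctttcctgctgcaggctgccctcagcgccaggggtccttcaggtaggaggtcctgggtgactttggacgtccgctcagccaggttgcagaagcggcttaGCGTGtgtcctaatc
These windows lie at chr7:30183921-30184220 (plus strand), chr9:79759804-79760103 (minus), chr5:115348909-115349208 (minus) and chr6:11907401-11907700 (minus). The Cox7a1 window held 3 matches to the hypoxia core and none to the NRF1 or ETS letters. Cox7a2 held 1 hypoxia core and 1 ETS core, Cox6a1 2 NRF1 motifs and 1 ETS core, and Ndufa4 1 hypoxia core. Some other members, not printed, held more hypoxia cores than Cox7a1. Ndufa7 held 5 and 6 in its windows (log2 value 0.17), and Cox5a, Atp5md and Ndufv3 held 4 each (0.14, 0.10 and 0.05). Of the other restricted isoforms with a promoter sequence, Cox8b held 2 (0.27), Cox7b2 held 1 (−0.10) and Cox6b2 held 0 (0.10). Whether hypoxia cores go with the values was not tested. Of the 78 promoters of members, 66.7% held ACGTG or GCGTG, against 43.8% of all 32851 promoters of the table. The NRF1 motif was in 24.4% of member promoters and in 4.60% of all, and GGAAG in 70.5% and 71.4%. In the comparison of MEKi with diluent, 16 structural subunits with the NRF1 motif had a median of 0.12 and 46 without it had 0.11. A match is a run of letters only and says nothing of binding.

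Complex I, the NADH dehydrogenase, was represented by 39 probe sets of 34 genes. None passed. At an unadjusted p under 0.05, 7 were higher (17.9%) and none lower. Of all probe sets, 7.58% were higher at that p, and 10.7% of those at or above the median level. Without experiment 3, none of the members was higher at that p. In all 3 experiments, 18 probe sets of complex I were higher and none lower. Over the whole array, 23.8% of probe sets were higher in all 3 experiments, and 30.3% of those at or above the median level. Among the members this held for 39 of 115 (33.9%), near the share of the brighter probe sets. By complex, it held for 46.2% of probe sets in complex I, 2 of 12 in complex III and 0 of 4 in complex II. The complex I median was 0.11. Ndufb6, an accessory subunit of the membrane arm, had the highest value of all members, with 10.77, 10.99 and 10.81 in MEKi cultures, against 10.32, 10.96 and 10.44 in diluent cultures (mean 0.29, SE 0.099, limma adjusted p = 0.405). Its difference in experiment 2 was only 0.04. Ndufa1, a small accessory subunit needed for assembly of the membrane arm, had 8.24, 8.40 and 8.30 in MEKi cultures, against 8.01, 8.24 and 7.89 in diluent cultures (0.27, adjusted p = 0.364). Ndufs5, another accessory subunit, had 0.27 with differences of 0.15, 0.06 and 0.60.

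Steadier, smaller differences were found for Ndufa3 and Ndufa7. Ndufa3 had 10.55, 10.61 and 10.54 in MEKi cultures, against 10.34, 10.43 and 10.37 in diluent cultures (mean 0.19, SE 0.072, limma adjusted p = 0.453). Ndufa7 had 9.84, 9.75 and 9.72 in MEKi cultures, against 9.66, 9.57 and 9.56 in diluent cultures (0.17, adjusted p = 0.493). In both genes all MEKi values lay above all diluent values. This held for 5 of the 115 member probe sets, namely these and Ndufa8, Cox6a1 and Cox8a, and for 5.69% of all probe sets. The reverse held for no member and for 2.17% of all probe sets. These 5 were named after their values were seen. The 6 measured core subunits (Ndufs1, Ndufs3, Ndufs7, Ndufs8, Ndufv1 and Ndufv2) had a median of 0.11 and the 28 accessory genes one of 0.12. Ndufs7 was at −0.01 and Ndufv1, the NADH-binding subunit, at 0.18. Of the 7 assembly factors, Ndufaf1, an early assembly factor, had differences of 0.24, 0.25 and 0.17 (mean 0.22, adjusted p = 0.394) and Ndufaf2 a value of 0.05.

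Complex II, succinate dehydrogenase, which also belongs to the TCA cycle, had no steady difference. Sdhb, the iron-sulphur subunit, had 8.44, 9.06 and 9.31 in MEKi cultures, against 8.53, 9.28 and 8.74 in diluent cultures, with a mean of 0.08 (SE 0.149, limma adjusted p = 0.897). The flavoprotein subunit Sdha had 0.04, and the membrane anchors Sdhc and Sdhd had 0.15 and 0.09. None of the 4 had the same direction in all 3 experiments, and all 4 were higher in experiment 3. Sdha and Sdhb changed sign without experiment 3, to −0.03 and −0.16.

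Complex III, which holds 12 probe sets of 9 genes, had a median of 0.12. Uqcr10, a small accessory subunit, had 9.12, 9.46 and 9.35 in MEKi cultures, against 8.95, 9.28 and 9.04 in diluent cultures (mean 0.22, SE 0.075, limma adjusted p = 0.405), the only gene of the complex at an unadjusted p under 0.05. The 3 probe sets of Uqcrb had 0.12 to 0.13. Uqcrfs1, the Rieske iron-sulphur protein, had 0.02, and Cyc1, cytochrome c1, had 0.14 with differences of 0.11, −0.14 and 0.46. All 12 probe sets were higher in experiment 3 and only 3 in experiment 2, and the median of the complex was −0.01 without experiment 3.

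In complex IV, the 10 widespread structural genes had a median of 0.10. Of them, 4 were higher in all 3 experiments (40.0%, against 31.7% of named genes at or above the median level). Cox6a1, the widespread form of subunit 6a, had 10.96, 10.99 and 11.02 in MEKi cultures, against 10.81, 10.83 and 10.58 in diluent cultures (mean 0.25, SE 0.087, limma adjusted p = 0.410). Cox8a, the widespread form of subunit 8, had 0.12, Cox6b1 had 0.09 and Cox7b had 0.07. For 2 subunits made from mitochondrial DNA the array gave a single-gene probe set, COX2, the copper-holding core of complex IV, at 0.04, and ND3, a membrane subunit of complex I, at 0.15 (adjusted p = 0.890 and 0.570).

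Complex V had 30 probe sets of 17 genes between 0.03 and 0.21 and a median of 0.11. None was called at an unadjusted p under 0.05, and none lay below 0. In all 3 experiments, 12 of 30 were higher (40.0%, against 30.3% of all probe sets at or above the median level). Atp5k, the e subunit that joins ATP synthase dimers, had 8.26, 8.53 and 8.64 in MEKi cultures, against 8.18, 8.43 and 8.19 in diluent cultures (mean 0.21, SE 0.095, limma adjusted p = 0.540). Atp5o, of the stalk, had 0.19 and Atp5g3, which encodes the proton-carrying c subunit, had 0.15. All 3 had their largest difference in experiment 3. Probe sets of a gene read the same transcripts and are not independent. In the 17 member genes that have several, their values spanned at most 0.11, and under 0.1 in 16 of the genes.

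**Figure D3:**
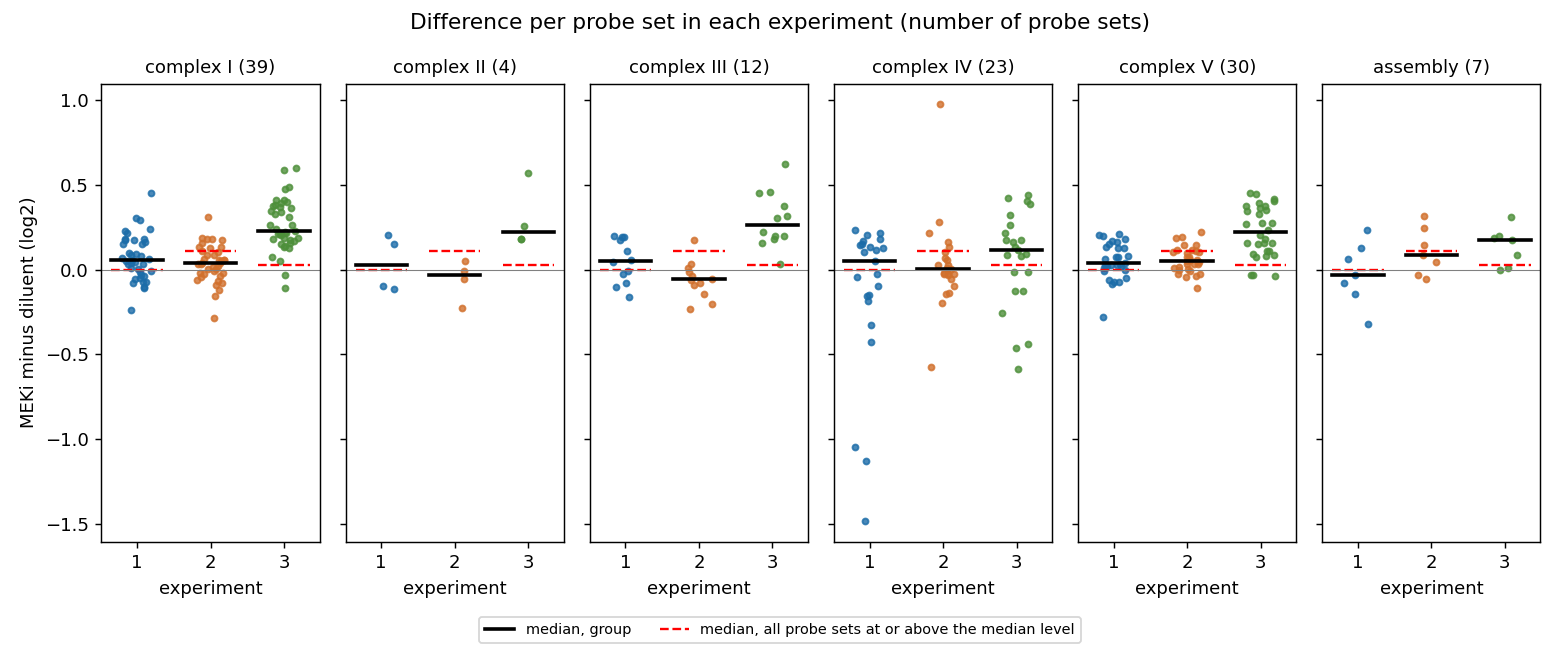
MEKi minus diluent on the log2 scale (y axis) for each member probe set in experiments 1, 2 and 3 (x axis), by complex; black lines are the median of the complex and red dashed lines the median of all probe sets at or above the median level (−0.00, 0.11 and 0.03). In experiment 3 the median of every complex lies above the dashed line, and the isoforms of complex IV form the lower tail.

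The positive values of the members came largely from experiment 3. Of the 115 probe sets, 73 were higher with MEKi in experiment 1, 70 in experiment 2 and 101 in experiment 3, which is 63.5%, 60.9% and 87.8%. Among all probe sets these shares were 49.1%, 75.0% and 53.5%, and among those at or above the median level they were 49.9%, 79.2% and 57.4%. The medians of the members were 0.05, 0.03 and 0.20, against −0.00, 0.11 and 0.03 for those brighter probe sets. Relative to the array, the members were thus above the background in experiments 1 and 3 and below it in experiment 2. Without experiment 3 none of the 115 was higher at an unadjusted p under 0.05, and the median was 0.05. The medians of complexes I, II and V were then 0.054, 0.0082 and 0.062. Without experiment 1, whose arrays stood apart, the median of the members was 0.12.

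The fit gave each probe set its own 95% confidence interval, not adjusted for the number of probe sets. For all 98 probe sets of structural subunits the 95% confidence interval lay within a 1.5-fold change in either direction, and its outer limits over all of them were 0.809 and 1.45 times the diluent level. This was so for 96.8% of all probe sets. Only Ndufa4l2, Cox7a1, Cox4i2 and Cox8b among the members had intervals that reached beyond 1.5-fold.

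Markers of adipocytes had the same order of experiments as the members. Of 8 such genes (Adipoq, Plin1, Fabp4, Cebpa, Pparg, Lep, Cidec and Ucp1), none passed. At an unadjusted p under 0.05, 3 were higher (37.5%) and none lower, and 2 were higher in all 3 experiments (25.0%). Among named genes at or above the median level, the shares higher in these ways were 11.1% and 31.7%. The medians of the 8 genes were 0.12, −0.06 and 0.56 in experiments 1, 2 and 3. Their summed level ran from 13.26 to 14.30 in MEKi cultures and from 12.80 to 14.17 in diluent cultures on the log2 scale. Lep and Ucp1 were below the median level of all probe sets. The part of adipocyte-like cells in the members' values was not tested, and in such bulk RNA a different number of cells of a type and a different amount of RNA per cell cannot be told apart. Of 7 leukocyte markers, 1 was higher and 2 lower in all 3 experiments (Lyz2 at 0.42, Cd68 at −0.61 and Csf1r at −0.08). Among all named genes these shares were 25.2% and 7.42%. The summed level of the 7 ran from 9.90 to 11.03 in MEKi cultures and from 9.90 to 11.59 in diluent cultures.

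Other mitochondrial and housekeeping groups were set beside the members. Among them, 40 proteasome subunits had a median of 0.11, with 0.06, 0.07 and 0.20 in experiments 1, 2 and 3. The 77 mitochondrial ribosomal proteins had 0.08, with 0.19 in experiment 3, and the 21 subunits of the V-ATPase, the proton pump of lysosomes, had 0.01, which turned below 0 after further quantile normalization or centring of the arrays. The 53 cytosolic ribosomal proteins had −0.05, with 6, 34 and 17 of them higher with MEKi in experiments 1, 2 and 3, and −0.008 without experiment 1. Without experiment 3 the medians of the proteasome and of the mitochondrial ribosome were 0.058 and 0.041. None of these genes passed the test (lowest adjusted p = 0.265 from limma). At an unadjusted p under 0.05, 14 were higher and 3 lower. The share higher was 10.0% for the proteasome, 11.7% for the mitochondrial ribosome, 4.76% for the V-ATPase and 0% for the cytosolic ribosome. Among named genes at or above the median level, 11.1% were higher and 3.20% lower.

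**Figure D4:**
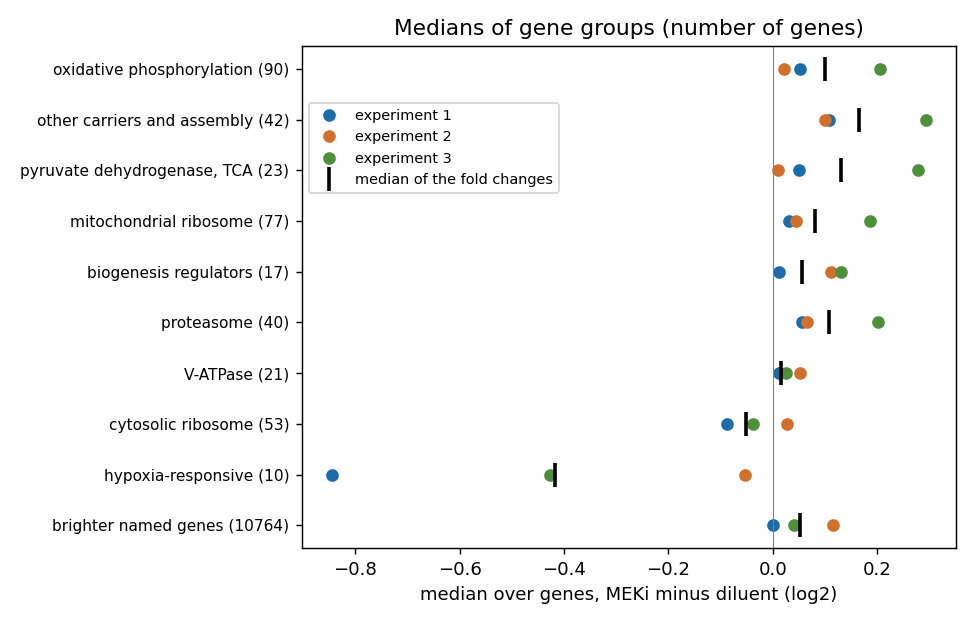
Median over the genes of a group of the difference between MEKi and diluent in log2 units (x axis) for the oxidative phosphorylation genes and other groups (y axis, number of genes in parentheses); coloured points are the medians in experiments 1, 2 and 3 and the black mark is the median of the log2 fold changes. The oxidative phosphorylation genes lie at 0.10, near the proteasome at 0.11, and the hypoxia-responsive genes, 2 of which are members, lie at −0.42 (−0.17 without experiment 1).

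Of 42 electron carriers and assembly factors that the symbols of the set do not cover, none passed, and their median was 0.17 (0.11 without experiment 3). At an unadjusted p under 0.05, 12 were higher (28.6%) and none lower. In all 3 experiments, 29 were higher (69.0%). Among named genes at or above the median level, 11.1% were higher and 3.20% lower at that p, and 31.7% were higher in all 3 experiments. Sdhaf4, a chaperone of the Sdha subunit, had 7.38, 7.39 and 7.24 in MEKi cultures, against 6.89, 7.12 and 6.88 in diluent cultures (mean 0.37, SE 0.079, limma adjusted p = 0.192). Cox14, which acts in the assembly of complex IV, had 0.31 (adjusted p = 0.274). Cox17, a copper chaperone, had −0.08, and Higd1a, a small protein of the inner membrane that is induced by low oxygen, had −0.35 with differences of −0.82, 0.26 and −0.50. Of 23 genes of pyruvate dehydrogenase and the TCA cycle, 1 was higher and 1 lower at an unadjusted p under 0.05 and none passed. Their median was 0.13, with 0.05, 0.01 and 0.28 in experiments 1, 2 and 3, and 0.026 without experiment 3. Sucla2, a succinyl-CoA ligase subunit, had 0.26 and Dld, the shared dehydrogenase subunit, had 0.24, while Pdp2, a phosphatase that activates pyruvate dehydrogenase, had −0.08.

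The 17 regulators of mitochondrial biogenesis had a median of 0.06 (0.11 without experiment 1 and 0.028 without experiment 2), and none was called at an unadjusted p under 0.05. Named for their roles, Nrf1, the respiratory factor, had 0.02 and Tfam, which packages mitochondrial DNA, had 0.07, while Gabpb1 and Yy1 had −0.04 and −0.05. Tfb2m, a mitochondrial transcription factor, had 0.15. The coactivator Ppargc1a had 0.14, but its values of 4.14, 4.29 and 4.34 in MEKi cultures, against 3.96, 4.17 and 4.21 in diluent cultures, were below the median level of all probe sets.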

How the data were processed

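The authors deposited log2 values of 28853 probe sets for 6 arrays after RMA normalization. Their notes also name Partek; versions are not given in the sources used here. These log2 values were used unfiltered, and all 6 columns were used. A table of GEO's platform annotation names 1 gene for 21789 probe sets, several for 1621 and none for 5443. The 6 probe sets that share a member's symbol with another gene (Cox7c, Ndufs5 and Ndufb4) were left out by the rule. Where a gene is named without its probe set, its brightest probe set, by the mean of all 6 arrays, stands for it.

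The conditions were compared with limma 3.58.1 (R 4.3.3), using lmFit, eBayes and a term for the experiment as the replicate block. Residual degrees of freedom were 2 and the prior added 5.17. The experiment numbers of the labels pair the arrays: arrays of the same experiment deviated together, with correlations of deviations of 0.81, 0.59 and 0.62, against −0.61 to 0.21 for other pairs. Benjamini-Hochberg adjustment covered the whole array, calls were made at 0.05, and medians of groups were not tested. For arrays the number of arrays limits the precision. The fit was tested on simulated data. The members, gene lists and tests were chosen with earlier results of these data known. The rule named the 3 highest and 3 lowest brighter probe sets of each complex with 1 direction in all experiments, the restricted isoforms and their partners, all complex II genes, and the 2 highest and 2 lowest genes of each list; lists shown only for comparison are given without their genes. Alternatives were no block, a random block, other scalings, brighter or single-gene probe sets only, array weights, a robust prior that follows intensity, each experiment left out, an ordinary analysis of variance and a fold threshold. Promoters of RefSeq (GRCm38.p6) were searched for fixed letters. Plots used matplotlib 3.10.9 (Python 3.11.15).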

Additional observations from a re-analysis of the deposited data

How the results depend on the processing

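No member passed at an adjusted p under 0.05 in any of the limma fits or in the ordinary analysis of variance; with a fold threshold of 1.5 and an unadjusted p up to 0.05 instead, 155 probe sets passed and 1 was a member (Ndufa4l2). Over all probe sets, 46 passed, but 0 when the replicate block was dropped (907 at an unadjusted p under 0.05), 0 when it was random (2321), 0 once arrays were centred on their medians (2780), 0 by analysis of variance (2195), 15 after a further quantile normalization, 25 among brighter probe sets and 115 under a robust prior that follows intensity; leaving out 1 experiment gave 0 to 37, with 14 without experiment 1 and 0 without experiment 2. The members higher at an unadjusted p under 0.05, 11 of 115, were 3 with no block, 7 with a random one, 7 after quantile normalization, 6 after centring, 19 under that robust prior, 7 by analysis of variance and 0 to 15 with an experiment left out. Those lower, 3, were 0 with no block, 0 with a random one, 1 by analysis of variance and 3 whichever experiment was left out.

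The median of the members lay between 0.05 and 0.14 over all alternatives. Further quantile normalization and centring brought the median of all probe sets to 0.00, against 0.04, and that of the members to 0.07. Ndufa4l2, Cox7a1 and Cox4i2 kept their direction throughout, with ranges of −1.04 to −0.58, −0.79 to −0.30 and −0.74 to −0.29 as experiments were left out. The V-ATPase median was −0.039 after quantile normalization, −0.017 after centring and 0.016 to 0.052 with an experiment left out, and the mitochondrially encoded median 0.066 after centring. Cox4i1 turned to −0.029 and −0.023 after quantile normalization and centring, and Cox6a2 to −0.037 and −0.027. With an experiment left out the ranges were −0.19 to 0.18 for Cox4i1, −0.017 to 0.018 for Cox6a2, −0.024 to 0.21 for Cox6b1, −0.012 to 0.089 for Cox7a2, −0.083 to 0.62 for Cox8b, −0.032 to 0.12 for Sdha, −0.16 to 0.24 for Sdhb, −0.15 to 0.0018 for Cox17, −0.11 to 0.0017 for Gabpb1, −0.21 to 0.0049 for Pdp2 and −0.16 to 0.073 for Yy1. The causes were not tested.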
